A study of Mus musculus with 4 samples.

Results

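Serine synthesis and the folate one-carbon enzymes were followed through 10 genes in D2.OR cells, a mouse mammary line labelled as pre-malignant hyperplastic alveolar cells. The genes were taken from the 48432 identifiers of the deposited table by matching each identifier to its GENCODE M21 symbol. They are Phgdh, Psat1 and Psph of serine synthesis, Shmt2, Mthfd2, Mthfd1l and Aldh1l2 of the mitochondrial folate pathway, and Shmt1, Mthfd1 and Aldh1l1 of the cytosolic one. Total RNA was sequenced from D2.OR cells expressing BORG, a long non-coding RNA (2 libraries), and from parental D2.OR cells (2 libraries). Both groups were grown as organoids for 7 days in 3D culture with Cultrex, a basement membrane extract. The deposited table calls the parental condition Empty, and whether those cells carried an empty vector was not settled; if they did not, carrying a vector and expressing BORG cannot be told apart. Whether the BORG-expressing cells were a single clone is not given in the sources used here.

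Serine is made from the glycolytic intermediate 3-phosphoglycerate, which PHGDH oxidises, PSAT1 transaminates and PSPH dephosphorylates. SHMT enzymes then move a carbon from serine to tetrahydrofolate and leave glycine. In mitochondria MTHFD2 oxidises the carried carbon, MTHFD1L releases it as formate, and ALDH1L2 can burn it to CO2 while making NADPH. In the cytosol the trifunctional enzyme MTHFD1 uses formate for purine, thymidylate and methionine synthesis. In mammalian cells several of these genes are known targets of ATF4, the transcription factor of the amino acid response.

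The members were chosen by their fragments and FPKM in earlier readings of this same contrast, BORG-expressing against parental cells, so their values in it are given as a description, without a test. The BORG-expressing libraries held 7.90 M and 27.1 M fragments assigned to genes and the parental libraries 24.2 M and 30.3 M. Levels are given as CPM (fragments scaled by each library's total and TMM factor), mean ± SD of 2 libraries, and log2 fold changes are BORG-expressing over parental with the SE of an edgeR fit to all genes. Of 5 luminal epithelial markers, Krt8 and Krt18 made up nearly all of a summed level of 1819 and 1831 CPM in BORG-expressing and 2250 and 2192 CPM in parental libraries, while Epcam had 1.52 to 2.95 CPM over the 4 libraries. The genes of this sum went both ways. Krt18 was lower in BORG-expressing libraries (928 and 896 CPM, against 1486 and 1458 CPM in parental ones). Krt8 was higher there (875 and 922 CPM against 756 and 728 CPM), as was Cdh1 (12.9 and 9.44 CPM against 5.25 and 4.89 CPM). Krt19 was also higher but stayed under 1 CPM. Of 5 basal markers Krt14 was the only one above 1 CPM, at 778.5 and 785.6 CPM in BORG-expressing and 306.4 and 306.5 CPM in parental libraries. The alveolar markers Elf5, Wap and Lalba were listed at 0 in all 4 libraries, and all 5 alveolar markers examined stayed under 1 CPM. These genes do not bear out the alveolar label. The identity of the line is not read from them, since whether this culture allows their expression was not tested. Fibroblast markers summed to 664 to 697 CPM in BORG-expressing and 837 to 878 CPM in parental libraries. Nearly all of it was Pdgfra and Col1a1, while Lum, Dcn and Col3a1 stayed under 1 CPM. Pdgfra was lower in BORG-expressing libraries (575 and 482 CPM, against 693 and 763 CPM in parental ones). Col1a1 overlapped between the groups (121 and 181 CPM in BORG-expressing, 143 and 115 CPM in parental libraries). Immune markers summed to 11.7 to 12.5 CPM in BORG-expressing and 8.15 to 8.78 CPM in parental libraries. Most of this sum was Cd68 (11.4 and 12.3 CPM in BORG-expressing, 6.85 and 7.46 CPM in parental libraries). Ptprc went the other way, at a mean of 0.172 CPM in BORG-expressing and 1.31 CPM in parental libraries. It rested on 1 and 6 fragments in BORG-expressing and 31 and 40 in parental libraries. Endothelial markers summed to 3.21 to 3.54 CPM in BORG-expressing and 9.33 to 10.6 CPM in parental libraries. Kdr and Cdh5 made up most of it and were lower in BORG-expressing libraries. Pecam1 was higher there (mean 0.690 CPM, against 0.153 CPM in parental libraries), but like Tek it stayed under 1 CPM. Adipocyte markers summed to 3.46 to 4.55 CPM in BORG-expressing and 5.84 to 6.93 CPM in parental libraries. Cd3e, Adgre1, Adipoq and Lep stayed under 1 CPM throughout. The part of these markers in the results was not tested. In bulk RNA, fewer cells of a type and less RNA per cell cannot be told apart.

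Because most of these genes were lower together, the stretches before their start sites were read from RefSeq (GRCm38.p6). A window was found for 9 of the 10 genes, 10 windows in all since Psat1 has a pair; Aldh1l2 was not matched. Shown are the 250 bases before the start of the first enzyme of serine synthesis and of a pair of mitochondrial enzymes, 5′ to 3′ on the gene's own strand, with matches to the motifs below in capitals. The RefSeq starts of Mthfd2, Psat1 (both windows) and Aldh1l1 lie far inside their longer GENCODE M21 genes. Those of Psph, Shmt1 and Phgdh lie a short way inside. Which starts these cells use was not tested, so the motif and CpG counts below hold for the RefSeq starts only.
Phgdh, chr3:98339970-98340219, minus strand: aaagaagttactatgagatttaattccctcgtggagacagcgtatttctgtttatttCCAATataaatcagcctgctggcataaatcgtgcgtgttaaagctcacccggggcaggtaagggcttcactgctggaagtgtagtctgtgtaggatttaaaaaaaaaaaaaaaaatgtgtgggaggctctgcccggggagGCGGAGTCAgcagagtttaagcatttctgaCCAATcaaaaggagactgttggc
Mthfd2, chr6:83317605-83317854, minus strand: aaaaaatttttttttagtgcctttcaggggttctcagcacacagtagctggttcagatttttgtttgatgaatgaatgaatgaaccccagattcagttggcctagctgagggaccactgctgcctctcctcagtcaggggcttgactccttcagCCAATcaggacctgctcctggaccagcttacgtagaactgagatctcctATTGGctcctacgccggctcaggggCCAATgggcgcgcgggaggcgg
Shmt2, chr10:127522445-127522694, minus strand: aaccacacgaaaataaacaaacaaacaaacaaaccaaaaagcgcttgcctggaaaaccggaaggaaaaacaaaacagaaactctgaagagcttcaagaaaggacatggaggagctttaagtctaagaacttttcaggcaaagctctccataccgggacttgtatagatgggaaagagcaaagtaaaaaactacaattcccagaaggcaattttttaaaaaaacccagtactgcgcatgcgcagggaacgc
The motif search took in 5 motifs, on both strands of the window from 250 bases before to 50 bases after the start. They were TGATGNAA (the form bound by ATF4 with C/EBP partners), CACGTG (the E-box bound by MYC), TGACNNNGC (the antioxidant response form bound by NRF2), GGGCGG (the GC box) and CCAAT. The last pair was added after the first results were seen. In the Phgdh window a TGACNNNGC match on the opposite strand began 53 bases before the start, and CCAAT began 193 and 23 bases before it. In the Mthfd2 window CCAAT stood at 96 and 22 bases before the start and, on the opposite strand, at 47. None of the 5 motifs was found in the Shmt2 window, and in these 3 windows no match overlapped another. TGATGNAA and CACGTG were in 0 of the 10 windows, beside 3.97% and 7.15% of all 32851 windows in the reference table. TGACNNNGC was in 2 of 10 (12.4% of all), GGGCGG in 6 of 10 (35.7%) and CCAAT in 7 of 10 (37.4%). A match is a description of letters, and a missing match says only that those letters are not in this window. The 10 windows held a median of 10 CpG dinucleotides in their 250 upstream bases, against 6 over all windows. That median falls between 2 sets of windows. Those of Phgdh, Mthfd2, Shmt2, Mthfd1l and Aldh1l1 held 7 each. Shmt1 held 13, Mthfd1 15, Psph 23 and the Psat1 pair 16 and 24.

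Of the 10 members, 9 had enough fragments to enter the fit, and all 9 were lower in BORG-expressing cells. All 9 lay past an adjusted p of 0.05 in that fit, where 41.1% of 15116 genes did so in either direction and 21.3% were lower; since the members were proposed from this contrast, nothing is read from that count. Their log2 fold changes ran from -3.87 (Aldh1l2) to -1.27 (Mthfd1) with a median of -3.03, against 0.02 over all genes tested. For each of the 9 both BORG-expressing libraries lay below both parental libraries, as the plot of CPM by library shows. How many of all genes separate in this way was not counted. Nothing is therefore read from a lack of overlap, here or for the genes named below. Summed over the 10 genes, the level was 386 ± 7.41 CPM in BORG-expressing cells and 3053 ± 47.8 CPM in parental cells (SD, n = 2 each).

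**Figure D1:**
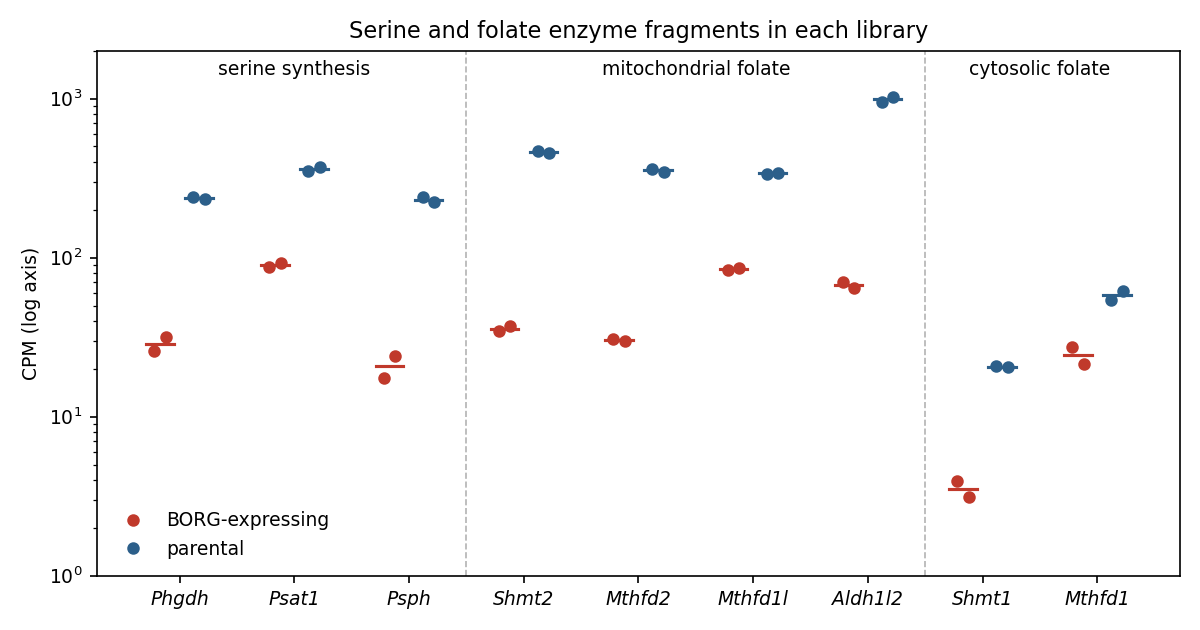
CPM of 9 members on a log axis, 1 point per library and a bar at the mean of 2, with BORG-expressing libraries in red and parental libraries in blue; Aldh1l1, with 0 to 2 fragments per library, is left out. In every gene the red points lie below the blue ones, with the widest gap for Aldh1l2 (67.5 against 989 CPM) and the narrowest for Mthfd1 (24.4 against 57.9 CPM).

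The 3 genes of serine synthesis were lower by different amounts. Phgdh, which encodes the enzyme that commits 3-phosphoglycerate to serine (chromosome 3, 98313170 to 98339990, GRCm38), had 25.8 and 31.7 CPM in the BORG-expressing libraries and 240 and 232 CPM in the parental ones. The groups did not overlap, and the log2 fold change was -3.03 ± 0.14. Psph, the last enzyme of the route (chromosome 5, 129765558 to 129787449), had 17.4 and 24.0 CPM in BORG-expressing and 240 and 223 CPM in parental libraries, a log2 fold change of -3.46 ± 0.18. Its BORG-expressing libraries lay further apart than those of Psat1, and leaving out single libraries moved its log2 fold change between -3.73 and -3.28. Psat1, the aminotransferase between them (chromosome 19, 15904678 to 15947337), had 87.6 and 93.2 CPM in BORG-expressing and 351 and 373 CPM in parental libraries. Its log2 fold change of -1.999 ± 0.10 was the closest to 0 of the 3. Psph shares 452 of its 4329 exon bases with Cct6a on the opposite strand, a chaperonin gene that was itself lower (-1.23, edgeR adjusted p = 6.87e-04), and the strand setting of the counting is not given in the sources used here.

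Among the mitochondrial enzymes, Aldh1l2 had the lowest log2 fold change of all members. It encodes the mitochondrial formyl-tetrahydrofolate dehydrogenase (chromosome 10, 83487450 to 83534140) and had 70.2 and 64.8 CPM in BORG-expressing libraries, against 948 and 1029 CPM in parental libraries, a log2 fold change of -3.87 ± 0.11. Shmt2, which makes glycine and a one-carbon unit from serine (chromosome 10, 127517123 to 127522444), had 34.3 and 37.2 CPM in BORG-expressing and 469 and 458 CPM in parental libraries (-3.69 ± 0.11). Mthfd2, the dehydrogenase and cyclohydrolase of the pathway (chromosome 6, 83305691 to 83325908), had 30.68 and 30.02 CPM in BORG-expressing and 360 and 346 CPM in parental libraries (-3.54 ± 0.11). These 3 stood close together, with parental means 11.6 to 14.6 times the BORG-expressing ones. Mthfd1l, the ligase that releases formate (chromosome 10, 3973118 to 4167081), stood apart at 83.6 and 86.0 CPM in BORG-expressing and 336 and 343 CPM in parental libraries. Its log2 fold change was -2.001 ± 0.10, a parental mean 4.01 times the BORG-expressing one, close to the ratio of 4.00 for Psat1. Aldh1l2 shares 1056 of its 7503 exon bases with D10Wsu102e on the opposite strand, which moved the other way (0.42, edgeR adjusted p = 0.0368). Shmt2 shares 32 of 3109 exon bases with Ndufa4l2, which had 0 to 5 fragments per library.

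The cytosolic enzymes were the scarcest members per length (FPKM) in both groups. Mthfd1, the trifunctional enzyme (chromosome 12, 76255298 to 76319803), had 27.4 and 21.4 CPM in BORG-expressing and 54.0 and 61.8 CPM in parental libraries, a log2 fold change of -1.27 ± 0.16. Shmt1, the cytosolic counterpart of Shmt2 (chromosome 11, 60788104 to 60811718), had 3.91 and 3.13 CPM in BORG-expressing and 20.7 and 20.6 CPM in parental libraries (-2.59 ± 0.19). Shmt1 rested on 31 and 86 fragments in the BORG-expressing libraries, and 184 of its 3883 exon bases are shared with Smcr8 on the opposite strand (-0.30, edgeR adjusted p = 0.0552). Aldh1l1, the cytosolic formyl-tetrahydrofolate dehydrogenase (chromosome 6, 90486427 to 90600203), was listed at 0 in both BORG-expressing libraries and at 2 and 1 fragments in the parental ones. It did not enter the fit and no fold is given; 3 fragments, the limit that a count of 0 allows for counting error alone, would be 0.379 and 0.109 CPM in the BORG-expressing libraries.

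The mitochondrial enzymes were lower by more than the cytosolic ones on average, but the compartments overlapped. The mean log2 fold change was -3.28 over 4 mitochondrial enzymes and -1.93 over the 2 cytosolic enzymes in the fit, a difference of -1.35. In single libraries the mean log2 CPM of the mitochondrial enzymes exceeded that of the cytosolic pair by 2.27 and 2.61 in BORG-expressing and by 3.85 and 3.77 in parental libraries, with a pooled SD between replicates of 0.18. The ranges crossed, since Shmt1 (-2.59) was lower by more than Mthfd1l (-2.001). Between related enzymes, Shmt2 had 14.7 and 12.7 times the FPKM of Shmt1 in the BORG-expressing libraries, against 28.9 and 25.8 times in the parental libraries. FPKM scale fragments by transcript length and library size, and are the deposited unit in which genes of different length can be compared. The deposited FPKM and fragments were not related by a fixed factor per gene. By fragments, Shmt2 had 8.77 and 11.9 times Shmt1 in BORG-expressing replicates 1 and 2, the reverse of their order by FPKM. In the parental libraries it had 22.7 and 22.2 times. The reason was not tested, and the size of the FPKM ratios is uncertain to that extent. Mthfd1l had 2.81 and 3.97 times the FPKM of Mthfd1 in BORG-expressing and 6.06 and 5.43 times in parental libraries. On fragments, the log2 ratio of Shmt2 to Shmt1 was 3.35 ± 0.31 in BORG-expressing and 4.49 ± 0.02 in parental libraries, and that of Mthfd1l to Mthfd1 was 1.81 ± 0.28 in BORG-expressing and 2.56 ± 0.12 in parental libraries (SD, n = 2 each). Both ratios were lower in each BORG-expressing library than in each parental one.

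**Figure D2:**
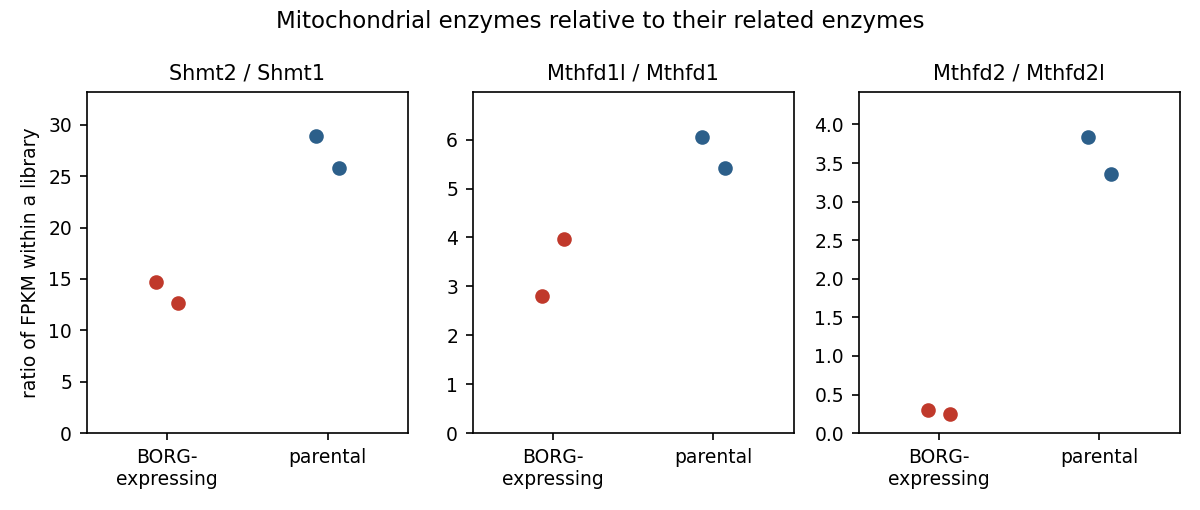
Ratio of FPKM between a mitochondrial enzyme and a related enzyme within each library, on linear axes from 0, with 1 point per library and BORG-expressing libraries on the left. Shmt2 over Shmt1, Mthfd1l over Mthfd1 and Mthfd2 over Mthfd2l all lie lower in the BORG-expressing libraries, and Mthfd2 over Mthfd2l is below 1 in BORG-expressing libraries (0.296 and 0.252) and above 1 in parental ones (3.84 and 3.36).

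Mthfd2l, a mitochondrial paralogue of Mthfd2 named after its values were seen, did not follow it. It had 110 and 92.0 CPM in BORG-expressing and 83.5 and 94.4 CPM in parental libraries, so that the groups overlapped, and did not pass (log2 fold change 0.18 ± 0.13, edgeR adjusted p = 0.329). In FPKM, Mthfd2 stood at 0.296 and 0.252 times Mthfd2l in the BORG-expressing libraries, against 3.84 and 3.36 times in the parental libraries. Mthfd2l was thus the more abundant of the 2 transcripts per length in BORG-expressing cells and Mthfd2 in parental cells.

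The order of the members by FPKM also differed between the groups. In BORG-expressing cells Psat1 stood highest at 34.2 ± 0.435 FPKM, followed by Mthfd1l at 19.1 ± 1.53 FPKM. Shmt2 (14.6 ± 4.58 FPKM), Mthfd2 (13.2 ± 0.458), Phgdh (12.8 ± 3.32) and Psph (11.97 ± 0.0279) came next, and the replicates of each overlapped those of its neighbour. Aldh1l2 (8.83 ± 0.402 FPKM), Mthfd1 (5.86 ± 1.87) and Shmt1 (1.05 ± 0.225) were lowest. An enzyme of serine synthesis thus led in BORG-expressing cells. In parental cells Shmt2 stood highest at 167 ± 8.55 FPKM, followed by Mthfd2 at 158 ± 2.40 FPKM. Psat1 (139 ± 13.8 FPKM), Aldh1l2 (129 ± 11.2) and Psph (128 ± 15.6) overlapped one another in turn. Here the mitochondrial enzymes Shmt2 and Mthfd2 led, and the cytosolic enzymes stood last in both groups. Phgdh (92.7 ± 6.93 FPKM), Mthfd1l (76.5 ± 0.538), Mthfd1 (13.4 ± 0.951) and Shmt1 (6.12 ± 0.175) followed, all SD with n = 2. The sums set the compartments side by side. Summed FPKM of the 4 mitochondrial enzymes were 60.6 and 50.7 in BORG-expressing and 531.5 and 531.1 in parental libraries. Those of the 3 serine synthesis enzymes were 61.0 and 56.9 in BORG-expressing and 366 and 354 in parental libraries, and those of the cytosolic folate enzymes 8.39 and 5.43 in BORG-expressing and 18.7 and 20.3 in parental libraries. FPKM and fragments ordered the BORG-expressing replicates differently for some members. Shmt2 had 17.8 and 11.4 FPKM in BORG-expressing replicates 1 and 2 but 34.3 and 37.2 CPM, and Phgdh had 15.2 and 10.5 FPKM but 25.8 and 31.7 CPM.

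**Figure D3:**
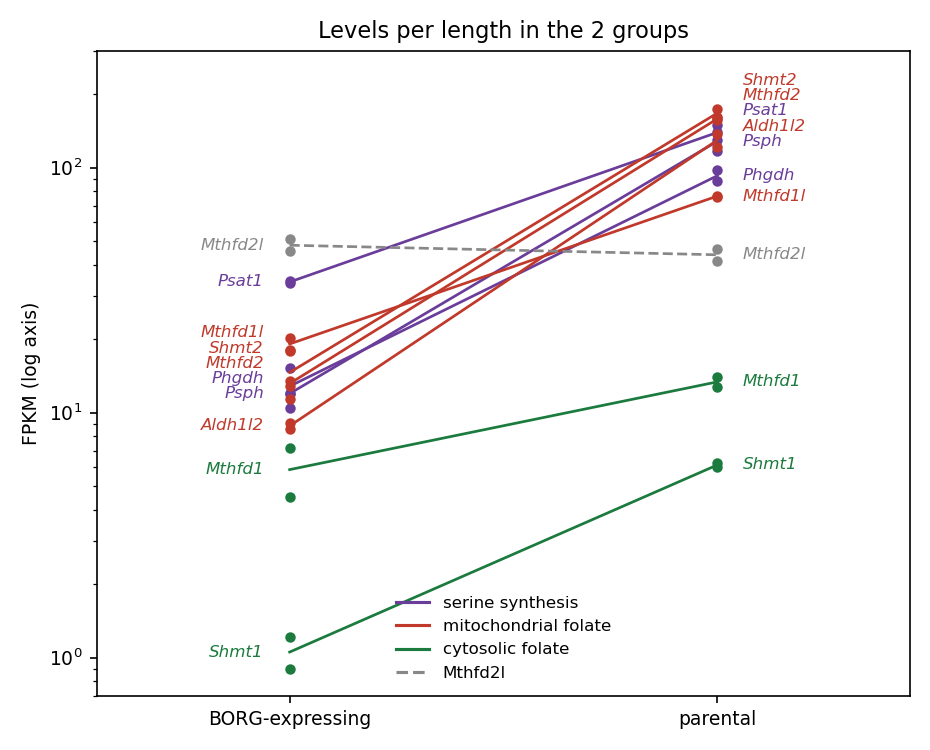
FPKM on a log axis of 9 members and of Mthfd2l (dashed) in BORG-expressing cells on the left and parental cells on the right, with points for the 2 libraries of a group and lines between group means. Psat1 heads the members in BORG-expressing cells (34.2 FPKM) and Shmt2 in parental cells (167 FPKM), while the Mthfd2l line is nearly level (48.2 and 44.1 FPKM).

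Across the rest of the pathway, 75 further genes in 8 lists were examined, of which 57 entered the fit. Of these, 27 fell and 8 rose in BORG-expressing cells (edgeR adjusted p under 0.05, against 21.3% lower and 19.9% higher over all 15116 genes), and 22 did not pass. Their median log2 fold change was -0.45, against 0.02 over all genes tested. Without parental replicate 2, 5 rose and 23 fell.

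Transport of serine and glycine held the lowest log2 fold change among the 8 lists. Of 8 tested transporter genes 7 fell and 0 rose, with a median log2 fold change of -1.27. Over all genes tested 21.3% were lower and 19.9% higher. The list was chosen with earlier results of these data known, so nothing is read from its count. Slc1a5, a transporter of neutral amino acids such as glutamine, had 30.7 and 32.8 CPM in BORG-expressing and 259.4 and 249.2 CPM in parental libraries and fell, with a log2 fold change of -3.00 ± 0.11 (edgeR adjusted p = 6.41e-05). Slc1a4, a serine and alanine transporter, had 43.3 and 51.0 CPM in BORG-expressing and 240.5 and 249.1 CPM in parental libraries (-2.37 ± 0.12, edgeR adjusted p = 1.05e-04). Slc38a2, a sodium-coupled neutral amino acid transporter, was more abundant and fell by 1.40 ± 0.09 on the log2 scale (edgeR adjusted p = 1.90e-04), with 545.5 ± 10.8 CPM in BORG-expressing and 1436 ± 62.8 CPM in parental cells. None of these 3 showed overlap between groups.

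Folate carriers and other folate enzymes also fell in part. Slc19a1, the reduced folate carrier of the plasma membrane, fell by 2.38 ± 0.13 (15.1 ± 1.25 CPM in BORG-expressing and 79.6 ± 7.27 CPM in parental cells, edgeR adjusted p = 1.19e-04). Slc25a32, the mitochondrial folate carrier, fell by 0.83 ± 0.17 (18.7 ± 3.34 CPM in BORG-expressing and 32.9 ± 2.12 CPM in parental cells, edgeR adjusted p = 0.00926). Slc46a1, the proton-coupled folate transporter, had 2.65 and 2.91 CPM in BORG-expressing and 2.10 and 3.04 CPM in parental libraries and did not pass (0.12 ± 0.33, edgeR adjusted p = 0.804). Folr1 and Folr2 had 0 to 6 fragments per library. Of 13 other folate cycle enzymes tested 8 fell and 0 rose, with a median log2 fold change of -0.77. Beside 21.3% lower and 19.9% higher over all genes tested, nothing is read from that count either. Fpgs, which adds glutamates that keep folates in the cell, fell by 1.66 ± 0.15 (edgeR adjusted p = 4.90e-04). Atic, a purine synthesis enzyme that uses formyl folate, fell by 1.42 ± 0.10 (edgeR adjusted p = 2.66e-04).

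The glycine cleavage system and the methionine cycle each held genes that fell and genes that rose, beside 21.3% lower and 19.9% higher over all genes tested. Nothing is read from these small counts. Of 4 glycine cleavage genes Dld, the dihydrolipoamide dehydrogenase it shares with other complexes, fell by 1.68 ± 0.14 (105 ± 10.9 CPM in BORG-expressing and 335 ± 41.5 CPM in parental cells, edgeR adjusted p = 3.50e-04). Gcsh, the lipoate carrier, fell by 0.45 ± 0.13 (edgeR adjusted p = 0.0376), a call lost without BORG-expressing replicate 2 (0.157), parental replicate 1 (0.123) or parental replicate 2 (0.110), with upper-quartile scaling (0.0606) and in both fits to FPKM (0.0828 and 0.0785). Amt, the aminomethyltransferase, rose by 1.77 ± 0.46 at a low level (16 and 68 fragments in BORG-expressing and 20 and 15 in parental libraries, edgeR adjusted p = 0.0235), a call lost without BORG-expressing replicate 2 (0.118) or parental replicate 2 (0.106). Gldc, the decarboxylase, had 0.726 to 1.14 CPM over the 4 libraries and did not pass (0.29 ± 0.48, edgeR adjusted p = 0.661). Of 7 tested methionine cycle genes 3 fell and 1 rose, with a median of -0.58. Mat2a, which makes S-adenosylmethionine, fell by 1.44 ± 0.12 (140 ± 9.79 CPM in BORG-expressing and 379 ± 37.2 CPM in parental cells, edgeR adjusted p = 3.63e-04), while its regulatory subunit gene Mat2b rose by 0.80 ± 0.12 (52.9 ± 5.41 CPM in BORG-expressing and 30.2 ± 0.114 CPM in parental cells, edgeR adjusted p = 0.00346). Sardh, the mitochondrial sarcosine dehydrogenase, fell by 1.55 ± 0.24 (edgeR adjusted p = 0.00359).

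Genes listed under serine and glycine use, not all of which consume either amino acid, were called in both directions. Of the 4 glycolytic genes around 3-phosphoglycerate, 1 rose and 0 fell. Of 11 tested genes of serine and glycine use 3 rose and 3 fell, with a median of -0.13. Over all genes tested 19.9% were higher and 21.3% lower, and nothing is read from counts this small. Serinc5, of a family of membrane proteins linked to serine incorporation into lipids, rose by 0.99 ± 0.12 (edgeR adjusted p = 0.00134). Gcat, a mitochondrial glycine acetyltransferase, fell by 1.04 ± 0.18 (edgeR adjusted p = 0.00608, and 0.0520 in limma on log2(FPKM + 1)). Serinc1 fell by 0.53 ± 0.12 (edgeR adjusted p = 0.0170), a call lost without parental replicate 2 (0.125) and in both fits to FPKM (0.110 and 0.103). Of the 4 glycolytic genes Pgam1, a phosphoglycerate mutase, rose by 0.95 ± 0.21 (122 and 80.7 CPM in BORG-expressing and 48.3 and 56.3 CPM in parental libraries, edgeR adjusted p = 0.0132, but 0.0834 and 0.0678 in the fits to FPKM). Pgk1, the kinase that makes 3-phosphoglycerate, did not pass (0.33 ± 0.12, edgeR adjusted p = 0.0656, but 0.0380 with upper-quartile scaling and 0.0434 with a mean of at least 5 FPKM required). Eno1 did not pass either (-0.31 ± 0.13, edgeR adjusted p = 0.113), though it did without BORG-expressing replicate 2 (0.0210) and without a filter on low counts (0.0372). Gapdh had only 6 to 25 fragments per library (0.23 ± 0.50, edgeR adjusted p = 0.743); this gene has many near-identical pseudogene copies, and its count is uncertain.

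**Figure D4:**
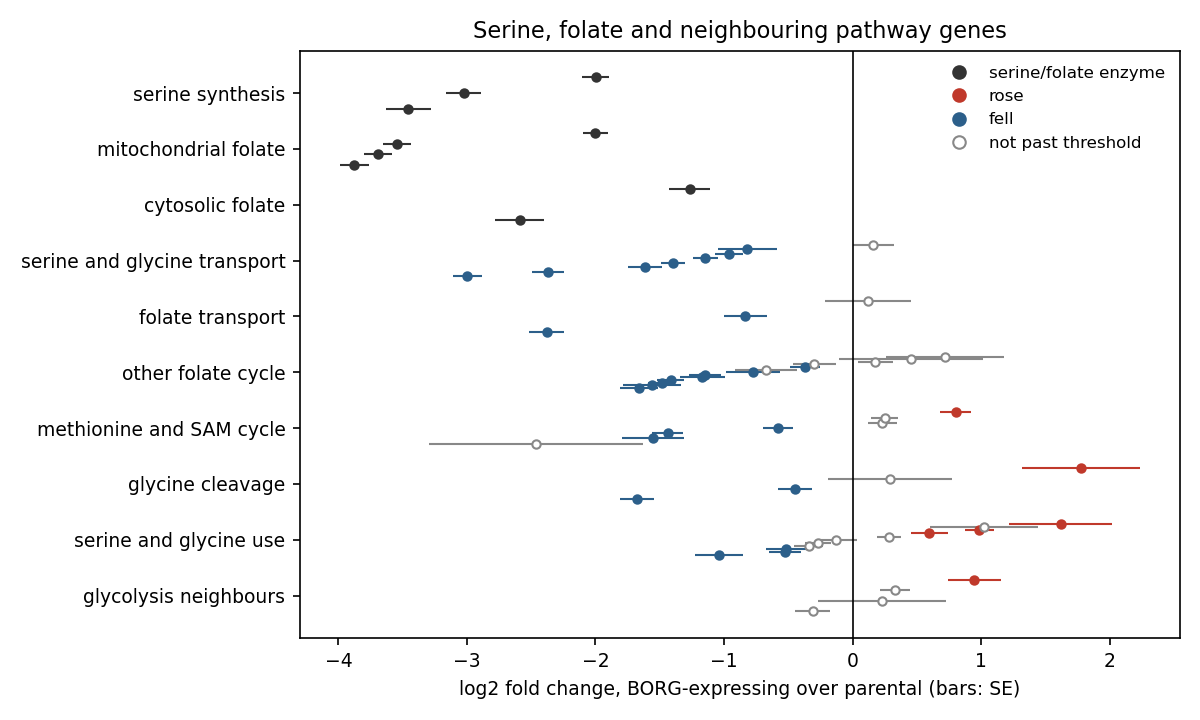
Log2 fold change of BORG-expressing over parental cells with SE for each tested gene of the serine and folate pathway and its neighbours, 1 point per gene and 1 row per list; members are black, other genes that rose red, that fell blue, and those not past the threshold open. All black points lie left of 0, from -3.87 to -1.27, and the transporter row reaches -3.00, while the rows of serine use and glycolysis stand on both sides of 0.

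Of 8 known regulators of these enzymes 7 were tested, of which 2 fell and 2 rose. Beside 21.3% lower and 19.9% higher over all genes tested, nothing is read from that count. Atf4, the amino acid response factor, had 232 and 215 CPM in BORG-expressing and 791 and 795 CPM in parental libraries, a log2 fold change of -1.83 ± 0.10. Myc, a growth-related transcription factor gene, had 41.9 and 51.6 CPM in BORG-expressing and 267 and 219 CPM in parental libraries (-2.37 ± 0.16). Trp53, which encodes p53, had 1794 and 2441 CPM in BORG-expressing and 451 and 376 CPM in parental libraries (2.36 ± 0.18). Atf4 and Myc thus fell and Trp53 rose, and in none of the 3 did the groups overlap. The edgeR adjusted p was 1.08e-04 for Atf4, 2.06e-04 for Myc and 2.82e-04 for Trp53. Nfe2l2, which encodes NRF2, did not pass (-0.22 ± 0.10, edgeR adjusted p = 0.137); it and Kdm4c (-0.31 ± 0.11, edgeR adjusted p = 0.0652) were named after their values were seen.

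The genes whose levels were most like those of Mthfd2 were found among 9149 genes with a mean of at least 10 CPM, by the Euclidean distance of log2 CPM over the 4 libraries after centring each gene. The nearest outside the members was Slc7a1, a carrier of cationic amino acids, at a distance of 0.05 (78.2 and 78.0 CPM in BORG-expressing and 893 and 866 CPM in parental libraries). Acot2, a mitochondrial acyl-CoA thioesterase, stood at 0.11, the kinase gene Rps6ka2 at 0.14, Bcat1, the cytosolic branched-chain aminotransferase, at 0.17 and the receptor gene Tnfrsf19 at 0.24. Their log2 fold changes ran from -3.63 (Rps6ka2) to -3.40 (Bcat1). In BORG-expressing cells Acot2 (7.23 CPM), Rps6ka2 (3.37 CPM) and Tnfrsf19 (1.88 CPM) had means under 10 CPM. They reached the filter only through the parental libraries (means of 86.6, 42.0 and 20.6 CPM). Rps6ka2 rested on 26 and 95 fragments and Tnfrsf19 on 16 and 48 in BORG-expressing libraries. Among the alternative fits the highest log2 fold change was -2.23 for Rps6ka2 and -1.88 for Tnfrsf19. Of the members, Shmt2 was nearest to Mthfd2 at 0.19, then Psph at 0.35, Aldh1l2 at 0.36 and Phgdh at 0.55. Shmt1 (1.03), Mthfd1l (1.54), Psat1 (1.54) and Mthfd1 (2.30) were farther. With 4 libraries in 2 groups this distance mostly measures how alike the log2 fold changes are.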

How the data were processed

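RNA was measured in 2 BORG-expressing and 2 parental libraries. FastQC, Trim Galore, TopHat and Cufflinks are the tools in the submitters' processing notes, which list GRCm38, mm10 and mm8 as builds; tool versions, annotation release and strand setting were not given in the sources used here. Per the file headers, the authors deposited estimated counts per gene (fragments, not all whole), a scaled fragment signal and FPKM. The signal was only checked against the counts.

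The table's conditions BORG and Empty were read as BORG-expressing and parental, and its replicates, numbered from 0, as 1 and 2. Symbols came from GENCODE M21 (48051 of 48432 identifiers). After rounding, the expected counts went into edgeR 4.0.16 under R 4.3.3 (TMM, filterByExpr, quasi-likelihood F test, two-sided, Benjamini-Hochberg over 15116 genes, threshold 0.05), with limma 3.58.1 on genes with a mean of at least 1 FPKM and DESeq2 1.42.0 as alternatives. The fits were tested on simulated data. The SE is the log2 fold change over the square root of F. Labels do not say whether duplicates were separate cultures, so p-values speak only to the spread among these 4 libraries, which may be technical. Counting limits cover counting error only.

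The members, lists and alternatives were chosen with earlier results of these data known. Named genes are the members, for each other list up to 3 genes with the smallest p past the threshold or every tested gene of lists with at most 5, and the 5 nearest to Mthfd2. Protein sequences were not used here, and 1 gene that the rule names is not reported here.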

Additional observations from a re-analysis of the deposited data

How the results depend on the processing

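All 9 members in the fit were lower past the threshold in 11 of 12 alternatives; with a mean of at least 5 FPKM required, 8 were, since Shmt1 was not tested. None of 107 member values changed sign, and the largest move was 0.79 (log2). All these fits reuse the libraries from which the members were proposed. They show how the values move with the processing and are not separate support. The difference between mitochondrial and cytosolic means was -1.71 in limma on log2(FPKM + 1) and -1.54 to -1.20 when single libraries were left out, where a lone library is assumed to vary like the others; requiring 5 FPKM left 1 cytosolic enzyme and no value. Over all genes 1479 were higher and 1842 lower in limma on log2(FPKM + 1), and 1509 and 1870 on log2(FPKM + 0.1), where 4 other pathway genes rose in each fit. Leaving out single libraries gave 5 to 8 that rose and 23 to 26 that fell. Slc46a1 ranged from -0.16 (without parental replicate 1) to 0.40 (without parental replicate 2), and passed in no fit. The cause of these moves was not tested.

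Libraries with the same number deviated from their group means in opposite directions (correlation across genes -0.44), and nothing in the labels pairs them. With the replicate block, 9 members were lower, 20 other pathway genes fell and 6 rose, 1986 of all genes were higher and 2204 lower, and Amt (0.0599), Gcsh (0.124) and Serinc1 (0.0705) lost their calls by adjusted p. Crossing the numbers in the block, a setting added with the data in view, gave 4619 higher and 4700 lower genes, 13 other pathway genes that rose, and a pass for Mthfd2l (0.0278). Low counts limit what can be said of Aldh1l1 and Gldc, which had at most 30 fragments in any library.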
